A study of Mus musculus with 12 samples.

Results

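The genes described here are 36 mouse genes of cholesterol and fatty acid synthesis, chosen by name from the known pathways, and 35 of them were measured and tested among 11095 genes in all. The exception was Idi1, for which no probe with a matching RefSeq accession was found. The genes were chosen with earlier results of these data known. They were measured in bone marrow-derived dendritic cells, antigen-presenting cells grown from mouse marrow. B and T cells had been removed from the marrow with antibodies, and the rest was kept 5 days in the cytokines GM-CSF (10 ng/ml) and IL-4 (5 ng/ml). Cells were left unstimulated or given 100 ng/ml of lipopolysaccharide (LPS), a bacterial cell wall component sensed through Tlr4, for 1, 6 or 24 h, with 3 samples (letters A, B and C, called donors in the labels) in each of the 4 groups. Mouse strain, sex and age are not given in the labels, and cells were collected by pipetting with no sort named. Each of the 12 arrays set 1 Cy5-labelled sample against the same Cy3-labelled pooled mouse reference RNA, so a level below is a log2 ratio of sample to reference, and a change is a difference of log2 ratios between group means. Levels of different genes cannot be ranked against each other, since each probe has its own scale. The unstimulated cells were those of 0 h, so LPS cannot be told apart from the added hours in culture.

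Cholesterol is built from acetyl-CoA through mevalonate, isoprenoid units, squalene and lanosterol, and fatty acids are built from the same acetyl-CoA by acetyl-CoA carboxylase and fatty acid synthase, then lengthened by elongases and given double bonds by desaturases. Most of these enzymes are transcribed under SREBP factors, encoded by Srebf1 and Srebf2. Scap carries these factors out of the endoplasmic reticulum when sterol is low, and the Insig proteins hold them back when sterol is high. In macrophages and dendritic cells, sterol and fatty acid metabolism is known to be tied to activation through Toll-like receptors and interferon.

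SREBP acts with the CCAAT-binding factor NF-Y, so the start regions of the genes were searched on both strands for CCAAT (NF-Y box), TCACNCCAC (sterol regulatory element), GGGCGG (GC box) and CACGTG (E-box). The windows, from RefSeq on build GRCm38.p6, reach from 250 bases before to 50 after a gene's annotated start, and 28 of the 35 measured genes had at least 1. An NF-Y box was found in 23 of the 28 (82.1%), a gene being counted if any of its windows held a match. The share was 43.4% of the 8972 tested genes with a window and 41.1% of all 27025 genes with a window. Counted by single window, an NF-Y box was in 37.4% of all 32851. All 10 genes with a window between squalene and cholesterol held one. A GC box was in 82.1% of the 28 against 65.4% of tested genes, and an E-box in 21.4% against 11.4%. The sterol regulatory element in this spelling was in 1 of the 28, Hmgcs1, against 1.48% of tested genes. The 250 bases before the start are shown for 5 genes, 5′ to 3′ on the gene's own strand, with NF-Y boxes (CCAAT or, on the other strand, ATTGG) and the sterol regulatory element in capitals. Hmgcs1 (chr13:119690101-119690350, plus strand) carries the sterol regulatory element 137 bases before the start. Lbr (chr1:181842402-181842651, minus strand) and Fasn (chr11:120824548-120824797, minus strand) are shown because theirs were among the 4 largest falls at 6 h, Nsdhl (chrX:72918271-72918520, plus strand) because it holds boxes and was not called, and Elovl6 (chr3:129532136-129532385, plus strand) because it fell and none of the 4 motifs is in its window. In Fasn, a box on each strand overlaps the other at 62 and 59 bases before the start.
Hmgcs1: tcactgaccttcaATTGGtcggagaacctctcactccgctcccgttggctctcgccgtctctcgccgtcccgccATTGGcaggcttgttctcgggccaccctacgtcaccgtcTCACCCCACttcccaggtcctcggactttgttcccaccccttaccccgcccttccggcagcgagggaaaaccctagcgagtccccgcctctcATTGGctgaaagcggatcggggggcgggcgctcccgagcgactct
Lbr: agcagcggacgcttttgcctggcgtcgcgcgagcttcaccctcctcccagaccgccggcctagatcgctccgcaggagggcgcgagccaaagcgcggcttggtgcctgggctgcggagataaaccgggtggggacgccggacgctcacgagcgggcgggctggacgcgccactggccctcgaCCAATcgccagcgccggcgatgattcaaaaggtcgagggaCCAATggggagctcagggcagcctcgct
Fasn: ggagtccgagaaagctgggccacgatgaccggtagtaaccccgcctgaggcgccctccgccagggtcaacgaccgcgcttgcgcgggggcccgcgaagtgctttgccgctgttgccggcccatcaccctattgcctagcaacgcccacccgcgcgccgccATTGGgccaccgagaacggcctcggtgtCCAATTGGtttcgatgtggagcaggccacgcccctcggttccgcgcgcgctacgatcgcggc
Nsdhl: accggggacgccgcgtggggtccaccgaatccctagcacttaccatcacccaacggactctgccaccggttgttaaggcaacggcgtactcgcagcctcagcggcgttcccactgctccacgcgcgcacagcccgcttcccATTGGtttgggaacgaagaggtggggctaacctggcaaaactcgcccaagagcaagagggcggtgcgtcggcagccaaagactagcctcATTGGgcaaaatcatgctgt
Elovl6: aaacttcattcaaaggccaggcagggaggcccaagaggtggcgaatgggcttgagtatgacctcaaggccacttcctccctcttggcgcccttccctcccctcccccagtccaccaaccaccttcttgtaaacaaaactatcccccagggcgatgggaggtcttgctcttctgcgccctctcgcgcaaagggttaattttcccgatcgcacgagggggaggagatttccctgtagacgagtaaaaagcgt

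The samples answered LPS. All 6 of a list of LPS response genes rose at 1, 6 and 24 h by limma's moderated test with Benjamini-Hochberg adjustment over all genes, the test behind every call below (adjusted p under 0.05). Arrays of 1 group correlated at r = 0.946 to 0.984 across genes, which are not independent replicates, and the share of probes well above background in Cy5 was 48.1 to 57.6% per array. Of 10 dendritic cell markers 9 were tested, and 8 or 9 of them were above background on all arrays of each group, while Cd209a was not tested. The cells also held neutrophil messengers, and these and the cell cycle genes fell with stimulation, as did the synthesis genes. Of 10 neutrophil markers 6 were tested, while Camp, Elane, Ly6g and Retnlg were not. All 6 fell at 6 h and at 24 h. Their summed Cy5 signal was 40596 to 67499 units over the unstimulated arrays. It was 5459 to 9498 at 6 h and 1770 to 13513 at 24 h. Of 13 tested cell cycle genes (Mki67 was not tested) 12 fell at both times, with sums of 42897 to 49412, 18086 to 27323 and 11047 to 16543. Of 9 macrophage markers 7 were tested, while Csf1r and Cd68 were not. The summed signal of the 7 went from 9061 to 12352 up to 20032 to 24062 at 6 h and 30086 to 46977 at 24 h. The members of this list differed. At 24 h 2 of the 7 rose and 2 fell, and 5 of the 7 changes were negative (median -0.39). C1qa was below background on all 24 h arrays. The part of these lists in the results below was not tested, and in whole cultures fewer cells of a type and less RNA per cell cannot be told apart. The arrays lay on 4 slides, and unstimulated arrays never shared a slide with arrays of 6 h or 24 h. Each comparison is therefore also given with slide as a block, which links the groups through shared slides. The unstimulated arrays shared theirs with only 1 stimulated array, 1 h A. Every slide-blocked change from unstimulated cells, and every call kept, lost or gained there, thus rests on that array.

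After 6 h of LPS most members were called lower, mainly from squalene to cholesterol, in sterol sensing and in elongation and desaturation. Of the 35 genes, 21 fell and none rose, 14 of them by at least 2-fold; none passed an unadjusted p of 0.05 upward either. Over all genes tested 23.6% were called lower at 6 h, 16.1% higher, and 5.76% lower by at least 2-fold. The members' median change was -0.79, against -0.038 over all genes. In 23 of the 35 the 3 stimulated arrays lay below the 3 unstimulated ones with no overlap, which held for 31.1% of all genes. By role, 8 of 12 enzymes between squalene and cholesterol, 4 of 6 genes of sterol sensing and transfer and 6 of 6 elongases and desaturases fell. Fewer fell among the early mevalonate enzymes (2 of 6) and the enzymes that supply and assemble palmitate (1 of 5). With slide as a block 14 members were called lower, against 9.09% of all genes; 13 of the 21 kept their call and all 21 their sign, while Acat2, Mvd, Lss, Msmo1, Srebf1, Scap, Scd1 and Fads1 lost the call and Hmgcs1 gained one. Without the 4 arrays of letter B, a setting chosen after seeing the data, 20 were called lower (19.3% of all genes). With arrays only centred on their medians in place of the loess correction, 10 members were called lower, against 5.94% of all genes, with a median of -0.76 (all genes 0.050). That setting turned the split of all calls from 2613 lower and 1783 higher to 659 and 1358.

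At 24 h 19 members were lower than in unstimulated cells and 1, Me1, was higher, against 21.4% and 17.9% of all genes, and 12 were lower by at least 2-fold, against 6.55%. The median change was -0.81 over the members and 0.021 over all genes. The stimulated arrays lay below the unstimulated ones with no overlap in 21 members and above them in 3, against 26.8% and 25.5% of all genes. Called lower were 2 of 6 mevalonate enzymes, 9 of 12 from squalene to cholesterol, 3 of 6 genes of sterol sensing and transfer, Fasn alone among the 5 that supply and assemble palmitate, and 4 of 6 elongases and desaturases. Slide as a block left 10 called lower (8.23% of all genes), all of them among the 19; the call was lost for Fdps, Tm7sf2, Msmo1, Hsd17b7, Ebp, Srebf1, Stard4, Scd1 and Fads1. Without letter B, 19 were lower (17.6%) and 2 higher (14.1%), and without the 24 h array B 2 were higher, Insig2 being the one added. With donor as a block 2 were higher as well (19.6%). Median centring left 10 lower (13.5% of all genes), with a median of -1.04 (all genes -0.11), and a split of all calls of 1503 lower and 832 higher against 2377 and 1990. The comparisons at 1, 6 and 24 h share the 3 unstimulated arrays, so their likeness is no separate support.

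**Figure D1:**
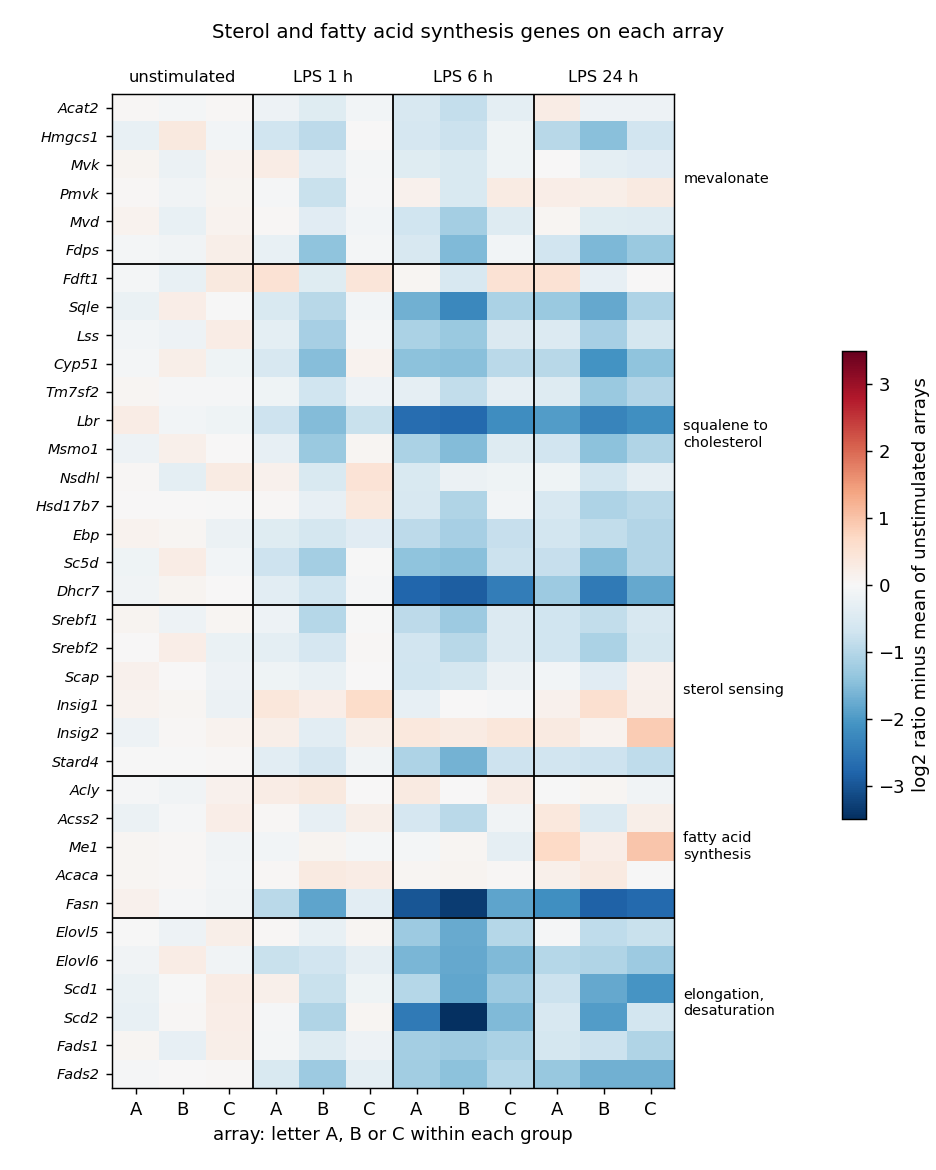
Each cell is the log2 ratio of 1 gene (rows, grouped by role) on 1 array (columns, 3 per group) minus the mean of the 3 unstimulated arrays. Blue marks lower and red higher. Fasn, the elongases, the desaturases and most of the block from Sqle to Dhcr7 are blue at 6 h, while Acly, Acaca, Fdft1 and Nsdhl stay pale.

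At 1 h few members were called. The median change over the 35 members was -0.29, against 0.018 over all genes. Of the 35 genes 2 fell and none rose, against 3.39% and 4.05% of all genes; at an unadjusted p under 0.05 these counts were 6 and 1. Lbr fell by 1.01 (adjusted p = 0.0145) and the elongase Elovl6 by 0.58 (adjusted p = 0.0389). Neither call held with slide as a block, where 0.496% of all genes were called lower; the values were -0.74 (adjusted p = 0.191) and -0.78 (adjusted p = 0.125). Leaving out the unstimulated array A ended the call for Lbr (adjusted p = 0.0853), and leaving out unstimulated A or B, 1 h A or B, or 6 h A ended that for Elovl6 (adjusted p from 0.0592 to 0.167). Without 1 h C 5 were called lower (4.64% of all genes). With donor letter as a block 4 were called (4.68% of all genes), adding Ebp (adjusted p = 0.0472) and Fads2 (adjusted p = 0.0267). All calls at this time split into 376 lower and 449 higher, and into 46 and 179 with median centring, 469 and 287 from the Cy5 channel alone. Without letter B no member was called, against 0.865% of all genes called lower, and with median centring none, against 0.415%. The 3 arrays of 1 h were spread: the median over the 35 genes of the level relative to the unstimulated mean was -0.15 on array A, -0.62 on B and -0.032 on C.

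Array B held the lowest of the 3 values for 31 of the 35 genes at 1 h, 30 at 6 h and 24 at 24 h, and for 14 in unstimulated cells. Over all genes it was lowest for 40.5%, 37.1%, 35.1% and 41.5%. At 6 h the median over the members, relative to the unstimulated mean, was -0.71 on A, -1.19 on B and -0.46 on C, and at 24 h -0.55, -0.90 and -0.68. The median over all genes stayed between -0.045 and 0.018 on these 6 arrays. The genes of an array share its RNA, so these counts are a description and were not tested. Other lists moved with B too. The summed signal of the LPS response genes was highest on B at each time of LPS. It was 297560 units at 1 h against 180737 and 217264, and 303094 at 6 h against 180007 and 261034. At 24 h it was 210466 against 106586 and 201214. The summed cell cycle signal was lowest on B at each time of LPS, at 16495 against 31104 and 39119 at 1 h. At 6 h it was 18086 against 19294 and 27323, and at 24 h 11047 against 16543 and 13340. Among the unstimulated arrays B had the highest cell cycle sum (49412 against 47358 and 42897). There it had the lowest LPS response sum (16801 against 19785 and 21709). The summed neutrophil signal was lowest on B at each time of LPS too, at 9051 against 21461 and 12091 at 1 h. It was 5459 against 6178 and 9498 at 6 h, and 1770 against 7394 and 13513 at 24 h. Among the unstimulated arrays C was lowest (40596 against 45512 on B). The part of these lists in the lower values of B was not tested. The 1 h and 24 h arrays of B were also the only 2 on slide 2, so for them donor and slide cannot be told apart, but the 6 h array of B shared slide 3 with that of A.

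Of the 6 early enzymes, which make and use mevalonate, 2 fell at 6 h and 2 at 24 h. Hmgcs1, the cytosolic HMG-CoA synthase, stood on the unstimulated arrays A, B and C at -0.015, 0.57 and 0.14, after 1 h at -0.46, -0.69 and 0.23, after 6 h at -0.35, -0.51 and 0.09 and after 24 h at -0.73, -1.24 and -0.45. Its 6 h arrays overlapped the unstimulated ones and its 24 h arrays lay below them. It fell by 1.04 ± 0.26 (SE, n = 3) at 24 h (adjusted p = 0.00718), while the 6 h change was -0.49 (adjusted p = 0.167). With slide as a block the 6 h value was -1.12 (adjusted p = 0.0478). Without letter B the 24 h change was -0.65 (adjusted p = 0.0596). A second, dimmer Hmgcs1 probe gave -0.14 at 6 h and -0.078 at 24 h, so the size of this change depends on the probe.

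Among the other early enzymes, Acat2 makes acetoacetyl-CoA. It stood on the unstimulated arrays A, B and C at 0.041, -0.058 and 0.04, after 1 h at -0.17, -0.40 and -0.084, after 6 h at -0.57, -0.84 and -0.35 and after 24 h at 0.27, -0.17 and -0.18. The 24 h arrays lay back among or near the unstimulated ones and above all of 6 h. It fell by 0.59 at 6 h (adjusted p = 0.00938) and was higher at 24 h than at 6 h. Mvd, which decarboxylates the mevalonate product, fell by 0.79 at 6 h (adjusted p = 0.00823) and gave -0.27 at 24 h. Fdps, which joins isoprenoid units to farnesyl diphosphate, fell by 1.19 at 24 h (adjusted p = 0.027). That call ended when any unstimulated array, 24 h B or 24 h C was left out (adjusted p from 0.0562 to 0.0953); at 6 h Fdps was called with donor as a block (adjusted p = 0.0309 against 0.153). The kinases Mvk (-0.37 at 6 h and -0.24 at 24 h) and Pmvk (-0.034 and 0.25) were not called at any time.

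The largest falls among the sterol genes, those of Dhcr7 and Lbr, came after squalene. Squalene synthase itself, Fdft1, was not called, with changes of 0.00087 at 6 h (95% interval -0.66 to 0.66) and 0.076 at 24 h. The next enzyme, the squalene epoxidase Sqle, a controlled step of the branch, stood on the unstimulated arrays A, B and C at -0.38, 0.083 and -0.15, after 1 h at -0.69, -1.11 and -0.24, after 6 h at -1.83, -2.40 and -1.25 and after 24 h at -1.46, -1.93 and -1.23. All 6 h and 24 h arrays lay below all unstimulated and 1 h arrays. Sqle fell by 1.68 ± 0.29 at 6 h (adjusted p = 0.000554) and by 1.39 at 24 h (adjusted p = 0.00201). Lss, which closes squalene epoxide into lanosterol, fell by 0.97 at 6 h (adjusted p = 0.0163), a call that ended without unstimulated C, 6 h A or 6 h B (adjusted p from 0.0599 to 0.0714), and gave -0.75 at 24 h (adjusted p = 0.0522, and with donor as a block 0.0037).

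Cyp51, the lanosterol demethylase, stood on the unstimulated arrays A, B and C at 0.33, 0.62 and 0.25, after 1 h at -0.15, -1.08 and 0.51, after 6 h at -1.04, -1.06 and -0.54 and after 24 h at -0.57, -1.68 and -1.01. At 1 h array B was already as low as the 6 h arrays while array C was within the unstimulated range. Cyp51 fell by 1.28 ± 0.35 at 6 h (adjusted p = 0.0108) and by 1.49 at 24 h (adjusted p = 0.00461).

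Lbr and Tm7sf2 both reduce the sterol double bond that Cyp51 leaves. Lbr, which is also the lamin B receptor of the inner nuclear membrane, stood on the unstimulated arrays A, B and C at -0.99, -1.35 and -1.41, after 1 h at -1.99, -2.77 and -2.03, after 6 h at -3.91, -3.97 and -3.41 and after 24 h at -3.21, -3.57 and -3.40. Each stimulated group lay below the unstimulated arrays, and 6 h also below 1 h. Lbr fell by 2.52 ± 0.22 at 6 h, or 5.72-fold (adjusted p = 2.94e-06), and by 2.15 at 24 h (adjusted p = 1.57e-05). Tm7sf2 gave -0.50 at 6 h (adjusted p = 0.0902, and with donor as a block 0.0169) and fell by 0.92 at 24 h (adjusted p = 0.00503).

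Of the enzymes that strip the methyl groups at carbon 4, the oxidase Msmo1 fell by 1.02 at 6 h (adjusted p = 0.0258) and 1.06 at 24 h (adjusted p = 0.0216). The 6 h call ended without unstimulated B or C or 6 h A or B (adjusted p from 0.062 to 0.114), and the 24 h call without unstimulated B or C or 24 h B or C (adjusted p from 0.053 to 0.0822). The dehydrogenase Nsdhl was not called, at -0.31 and -0.36. The reductase Hsd17b7 fell by 0.86 at 24 h (adjusted p = 0.00978), and at 6 h was called with donor as a block (adjusted p = 0.0246 against 0.0643).

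In the last steps, the isomerase Ebp fell by 0.96 at 6 h (adjusted p = 0.000203) and 0.85 at 24 h, and the desaturase Sc5d by 1.22 (adjusted p = 0.00437) and 1.12. Dhcr7, which turns 7-dehydrocholesterol into cholesterol, stood on the unstimulated arrays A, B and C at 0.89, 1.11 and 1.02, after 1 h at 0.64, 0.30 and 0.96, after 6 h at -1.78, -1.87 and -1.42 and after 24 h at -0.26, -1.48 and -0.77. At 1 h array C lay within the unstimulated range and A and B below it, and the 6 h arrays lay below all of these. Dhcr7 fell by 2.70 ± 0.26 at 6 h, or 6.48-fold (adjusted p = 6.67e-06), and it fell by 1.85 at 24 h, or 3.6-fold (adjusted p = 0.00014). A second Dhcr7 probe fell by 0.81 and 0.56, in the same direction with smaller size.

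**Figure D2:**
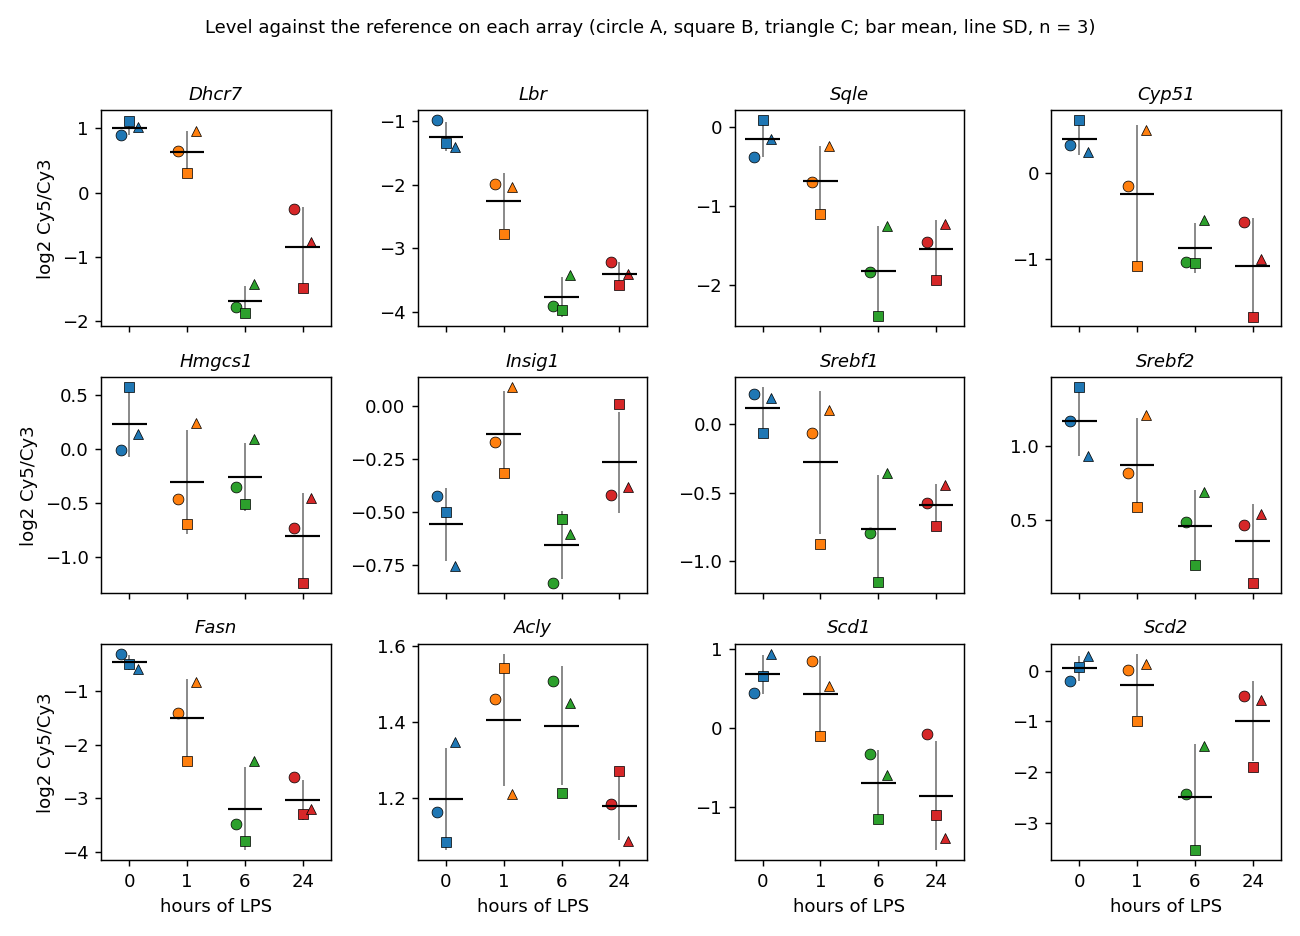
Log2 ratio of sample to reference (y, each panel with its own scale) for 12 of the genes at 0, 1, 6 and 24 h (x); circles, squares and triangles are arrays A, B and C, the bar is the mean and the line 1 SD (n = 3). Dhcr7, Sqle, Fasn and Scd2 drop between 1 and 6 h, Lbr is already lower at 1 h, and Insig1 and Acly show no fall against unstimulated cells.

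The genes that sense sterol were divided: both SREBP genes fell, Srebf2 on 1 of its 2 probes, and neither Insig gene was called against unstimulated cells. Srebf1 stood on the unstimulated arrays A, B and C at 0.22, -0.065 and 0.19, after 1 h at -0.069, -0.87 and 0.098, after 6 h at -0.79, -1.15 and -0.36 and after 24 h at -0.58, -0.74 and -0.44. All 6 h and 24 h arrays lay below the unstimulated ones. Srebf1 fell by 0.88 ± 0.24 at 6 h (adjusted p = 0.011) and 0.70 at 24 h (adjusted p = 0.0343). Leaving out 6 h B ended the first call (adjusted p = 0.0546), and leaving out unstimulated A or C or any 24 h array ended the second (0.0506 to 0.1). With slide as a block neither was called, the values being -0.85 (adjusted p = 0.159) at 6 h and -0.59 (adjusted p = 0.342) at 24 h.

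Srebf2, whose product acts mainly on sterol genes, stood on the unstimulated arrays A, B and C at 1.17, 1.40 and 0.93, after 1 h at 0.82, 0.58 and 1.21, after 6 h at 0.48, 0.19 and 0.69 and after 24 h at 0.46, 0.068 and 0.54. The 1 h arrays overlapped the unstimulated ones, and those of 6 h and 24 h lay below. It fell by 0.71 ± 0.19 at 6 h (adjusted p = 0.011) and 0.81 at 24 h (adjusted p = 0.00523). It was also called in the slide-blocked fit, at -1.06 (adjusted p = 0.0316) for 6 h and -1.08 (adjusted p = 0.0342) for 24 h. The 6 h call ended without unstimulated B (adjusted p = 0.0519), 6 h B (0.0531) or letter B (0.0597). A second Srebf2 probe gave -0.19 at 6 h and -0.23 at 24 h, neither called, so the size and the call depend on the probe. Scap fell by 0.51 at 6 h (adjusted p = 0.0279), a call that ended without unstimulated A or B or 6 h A or B (0.0688 to 0.121) or letter B (0.103), and gave -0.11 at 24 h.

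Insig1 is itself switched on by SREBP. It stood on the unstimulated arrays A, B and C at -0.43, -0.50 and -0.76, after 1 h at -0.17, -0.32 and 0.089, after 6 h at -0.84, -0.53 and -0.60 and after 24 h at -0.42, 0.0094 and -0.38. The 1 h arrays lay above the unstimulated ones, the 6 h arrays overlapped them and lay below 1 h, and the 24 h arrays lay above them by a narrow margin. Its changes against unstimulated cells were 0.43 at 1 h (adjusted p = 0.118), -0.098 at 6 h (95% interval -0.44 to 0.24) and 0.29 at 24 h (95% interval -0.045 to 0.63). From 1 to 6 h it fell by 0.52 (adjusted p = 0.0248), a call that ended without 1 h A, 1 h C or 6 h A (0.0544 to 0.11) and was not made on its second probe (-0.84). Insig2 gave 0.35 at 6 h and 0.44 at 24 h (adjusted p = 0.0998, and with donor as a block 0.0492).

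Stard4, which carries cholesterol between membranes, stood on the unstimulated arrays A, B and C at 1.71, 1.69 and 1.75, after 1 h at 1.36, 1.14 and 1.60, after 6 h at 0.63, 0.058 and 0.99 and after 24 h at 1.05, 0.98 and 0.83. Unstimulated values were nearly equal and each stimulated group lay below them. Stard4 fell by 1.16 ± 0.20 at 6 h (adjusted p = 0.000533) and 0.77 at 24 h (adjusted p = 0.00764). Its other 2 probes gave -0.84 and -0.62 at 6 h, neither called, and fell by 0.93 and 0.71 at 24 h.

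Of the 5 genes that supply and assemble palmitate, Fasn fell and no other was called lower. Fasn, the synthase that assembles palmitate, stood on the unstimulated arrays A, B and C at -0.31, -0.49 and -0.59, after 1 h at -1.41, -2.30 and -0.83, after 6 h at -3.47, -3.78 and -2.31 and after 24 h at -2.60, -3.29 and -3.19. Every 1 h array lay below the unstimulated range and every 6 h array below every 1 h array. Fasn fell by 2.72 ± 0.38 at 6 h, or 6.6-fold (adjusted p = 0.000143), and by 2.56 at 24 h, or 5.91-fold (adjusted p = 0.000225); at 1 h the change was -1.05 (adjusted p = 0.116). A second Fasn probe fell by 1.06 and 1.24, again less than the brighter probe, and by 0.59 at 1 h, where it was called (adjusted p = 0.0163 over all probes).

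Acly, which makes the acetyl-CoA for both pathways from citrate, stood on the unstimulated arrays A, B and C at 1.16, 1.08 and 1.35, after 1 h at 1.46, 1.54 and 1.21, after 6 h at 1.51, 1.21 and 1.45 and after 24 h at 1.18, 1.27 and 1.09. The groups overlapped, and the changes were 0.19 at 6 h (95% interval -0.088 to 0.47) and -0.017 at 24 h (95% interval -0.30 to 0.26). The carboxylase Acaca was not called at 0.069 (95% interval -0.19 to 0.33) and 0.16; its probe was above background on 2 of 3 arrays at 1 h and at 24 h. Acss2, which makes acetyl-CoA from acetate, gave -0.55 at 6 h (adjusted p = 0.0925, and with donor as a block 0.0196) and 0.027 at 24 h.

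Me1, the malic enzyme that supplies NADPH, was the 1 member called higher against unstimulated cells. It stood on the unstimulated arrays A, B and C at -2.89, -2.92 and -3.09, after 1 h at -3.06, -2.86 and -3.03, after 6 h at -3.04, -2.90 and -3.27 and after 24 h at -2.28, -2.74 and -1.99. All 24 h arrays lay above the other 9. Me1 rose by 0.63 ± 0.17 at 24 h, or 1.55-fold (adjusted p = 0.0104); with slide as a block the value was 0.46 (adjusted p = 0.389).

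All 6 elongases and desaturases were called lower at 6 h, and 4 of them kept the call with slide as a block. Elovl6, which lengthens palmitate, stood on the unstimulated arrays A, B and C at -1.18, -0.79 and -1.18, after 1 h at -1.83, -1.71 and -1.36, after 6 h at -2.66, -2.83 and -2.58 and after 24 h at -2.05, -2.11 and -2.33. The groups formed separate steps, 6 h lowest and 24 h between 6 h and 1 h. It fell by 1.64 ± 0.15 at 6 h (adjusted p = 5.6e-06) and 1.11 at 24 h (adjusted p = 0.000136). Its probe was above background on 2 of 3 arrays at 6 h. The 6 h call of Elovl6 was kept under 12 of 13 other settings (adjusted p up to 0.263). Elovl5, the elongase of polyunsaturated chains, stood on the unstimulated arrays A, B and C at 1.09, 0.93 and 1.31, after 1 h at 1.14, 0.85 and 1.18, after 6 h at -0.15, -0.65 and 0.12 and after 24 h at 1.06, 0.21 and 0.32. At 24 h array A lay within the unstimulated range, and B and C lay below it and above the 6 h arrays. Elovl5 fell by 1.33 at 6 h (adjusted p = 0.000636) and gave -0.58 at 24 h (adjusted p = 0.0643, and with donor as a block 0.021).

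Scd1 and Scd2 put the first double bond into stearate and palmitate. Scd1 stood on the unstimulated arrays A, B and C at 0.44, 0.66 and 0.93, after 1 h at 0.85, -0.096 and 0.53, after 6 h at -0.33, -1.15 and -0.60 and after 24 h at -0.077, -1.10 and -1.39. At 24 h array A stood apart from B and C, which were lower. Scd1 fell by 1.37 ± 0.33 at 6 h (adjusted p = 0.00512) and 1.53 at 24 h (adjusted p = 0.00261), but with slide as a block by 0.98 and 1.00, neither of them called (adjusted p = 0.293 at 6 h and 0.298 at 24 h). Scd2 stood on the unstimulated arrays A, B and C at -0.21, 0.078 and 0.28, after 1 h at 0.0054, -0.99 and 0.12, after 6 h at -2.42, -3.54 and -1.48 and after 24 h at -0.51, -1.90 and -0.58. It spread the most at 6 h, with B lowest and C highest, yet every 6 h array lay below every 1 h array. Scd2 fell by 2.53 ± 0.48 at 6 h, or 5.78-fold (adjusted p = 0.00117), and gave -1.04 at 24 h (adjusted p = 0.105, and with donor as a block 0.0145).

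Fads1 and Fads2 make polyunsaturated fatty acids. Fads2 stood on the unstimulated arrays A, B and C at -0.018, 0.046 and 0.073, after 1 h at -0.49, -1.23 and -0.32, after 6 h at -1.19, -1.39 and -0.97 and after 24 h at -1.29, -1.66 and -1.65. Unstimulated values differed little, and all 9 stimulated arrays lay below them. Fads2 fell by 1.22 ± 0.21 at 6 h (adjusted p = 0.000516) and by 1.57 at 24 h (adjusted p = 8.94e-05). Fads1 fell by 1.18 at 6 h (adjusted p = 0.000101) and 0.82 at 24 h (adjusted p = 0.00141). Each of these calls was kept under 12 of 14 other settings, with adjusted p up to 0.813 at 6 h and 0.29 at 24 h.

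**Figure D3:**
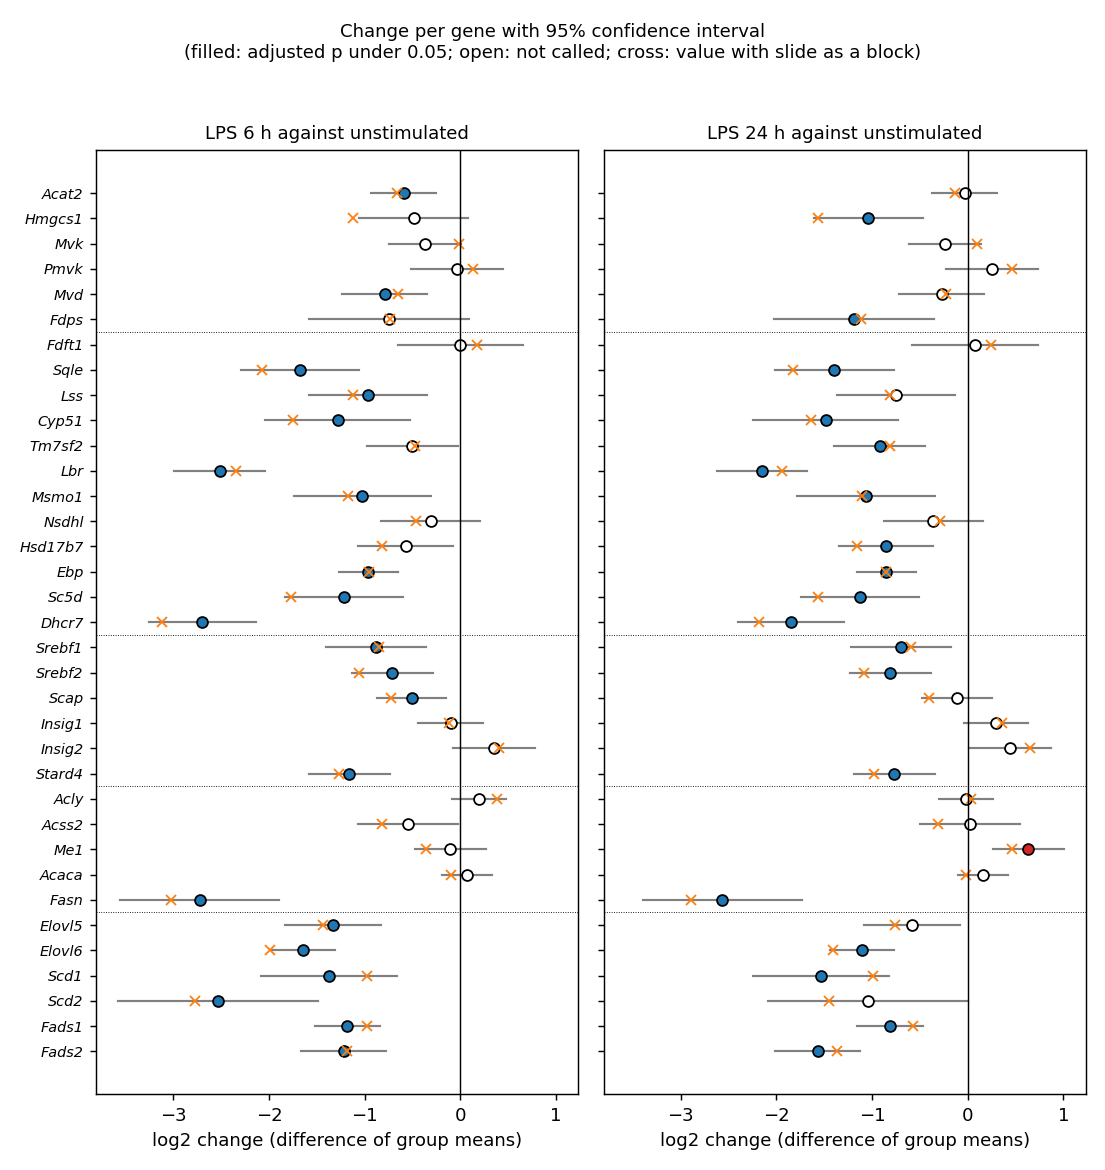
Change in log2 ratio (x) of each gene (y) at 6 h (left) and 24 h (right) against unstimulated cells; circles are the estimates, blue for lower, red for higher and open for not called, lines are 95% confidence intervals, and orange crosses are the values with slide as a block. Fasn, Dhcr7, Lbr and Scd2 lie farthest left at 6 h, and Me1 at 24 h is the 1 red circle.

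At 6 h 7 falls, those of Dhcr7, Elovl5, Fasn, Lbr, Scd2, Sqle and Stard4, were called under all 14 other settings and with each of the 12 arrays left out in turn. At 24 h that held for 6, namely Cyp51, Dhcr7, Fads2, Fasn, Lbr and Sqle. The share of all genes whose calls held in this way was not computed, so these counts describe single genes only. An NF-Y box was held by 12 of the 16 genes with a window that fell at 6 h and by 11 of the 12 that were not called lower.

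The step from 1 to 6 h shows how much of the change fell in those hours, and slide 3 held arrays of both times. Between these times 13 members fell and none rose (18 and 0 at an unadjusted p under 0.05 in limma), against 16.2% and 12% of all genes, with a median of -0.51 (all genes -0.088). They included Dhcr7 (-2.32, adjusted p = 3.26e-05), Scd2 (-2.20, adjusted p = 0.00456), Fasn (-1.68, adjusted p = 0.00592), Lbr (-1.50) and Elovl5 (-1.28). On slide 3 alone, which held 1 h C and 6 h A and B, 32 of the 35 genes were lower at 6 h, with a median of -0.97, against 54.7% of all genes. That slide sets letter C at 1 h, the array least lowered at that time, against letters A and B at 6 h. Same-letter arrays of these times deviated together for B and C (r = 0.55 and 0.55). For A r was 0.21, as it was for 1 h A with 6 h C, and pairs of unlike letters ran from -0.53 to 0.21. Letter and time cannot be told apart on that slide. With slide as a block 17 were called (13.7% of all genes), 9 of them among the 13. Without the 2 arrays of slide 2, a setting chosen after seeing the data, 23 were called (17.7%), and leaving out 1 h B gave 21 (16.3%). With median centring 1 member was called lower (2.22% of all genes), and all calls split into 246 lower and 1206 higher against 1793 and 1331.

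From 6 to 24 h some of the genes rose in the main fit and none fell by limma's test, nor at an unadjusted p under 0.05. Higher at 24 h than at 6 h were 6 members, against 9.65% of all genes, and 8.73% of all genes were lower. The 6 were Scd2 (1.49, adjusted p = 0.0482), Dhcr7 (0.85, adjusted p = 0.0374), Elovl5 (0.75, adjusted p = 0.0398), Me1 (0.74, adjusted p = 0.0109), Acat2 (0.56, adjusted p = 0.0272) and Elovl6 (0.53, adjusted p = 0.0301). Leaving out 6 h A, 6 h B or 24 h A ended the call of each of these but Me1 (adjusted p from 0.0759 to 0.184). With local backgrounds as deposited none of the 6 was called, and the changes of Me1 and Elovl6 turned negative (-0.048 and -0.33). The call of Dhcr7 also ended without any unstimulated array, 1 h A or 24 h C (0.0503 to 0.103), that of Scd2 without any unstimulated array, 1 h A or C or 24 h C (0.0531 to 0.159), that of Elovl5 without unstimulated A, 1 h A or 24 h C (0.0535 to 0.0574), and that of Elovl6 without 24 h B (0.0717). Dhcr7 and Elovl6 were still below unstimulated cells at 24 h. Me1 had not been called lower at 6 h (change of -0.11), so its rise was no return from a fall. The other members gave changes from -0.55 (Hmgcs1) upward that were not called; among them, Fasn (0.16, 95% interval -0.67 to 0.99) and Lbr (0.37, 95% interval -0.10 to 0.84) were still called lower than in unstimulated cells at 24 h. Slide as a block kept 3, namely Dhcr7, Me1 and Scd2 (3.82% of all genes). On slide 4 alone, with 6 h C and 24 h A and C, 21 of the 35 genes were lower at 24 h, against 47.1% of all genes (median -0.052, all genes 0.024). The only 6 h array there was C, the least lowered at that time, so letter is mixed with time on that slide. Without 6 h A, 6 h B or 24 h A 1 call was left, that of Me1 (540, 625 and 822 of all genes higher). Without unstimulated A, 1 h A or 24 h C there were 3 (941, 967 and 666), and without 6 h C there were 10 (963). Median centring gave none (0.865% of all genes), with all calls at 831 lower and 96 higher against 969 and 1071, and without letter B there were 3 (7.28% of all genes). With donor as a block there were 8 (11.5% of all genes), adding Mvd (adjusted p = 0.027) and Acss2 (adjusted p = 0.0297).

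The lists of neighbouring genes, which hold no member, had calls in both directions at 6 h. Of 8 other sterol and isoprenoid genes 2 fell and 2 rose at 6 h, and the same counts held at 24 h. Nus1, a subunit of the enzyme that makes dolichol precursors, rose by 1.29 ± 0.19 (SE, n = 3) at 6 h (adjusted p = 0.000165), its partner Dhdds changed by -0.55 ± 0.15 (adjusted p = 0.0123), and Pdss1 of ubiquinone synthesis changed by -1.42 ± 0.17 at 24 h (adjusted p = 4.72e-05).

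Of 13 genes of sterol uptake and transport 4 rose and 2 fell at 6 h, and 5 rose and 4 fell at 24 h. Stard3, which moves cholesterol out of late endosomes, rose by 1.71 ± 0.10 at 6 h (adjusted p = 1.55e-07), and Npc2, which unloads cholesterol in lysosomes, by 1.83 ± 0.21 at 24 h (adjusted p = 3.84e-05). The HDL receptor Scarb1 changed by -1.44 ± 0.19 at 6 h (adjusted p = 0.000103) and the sterol-regulated Tmem97 by -1.46 ± 0.17 (adjusted p = 3.07e-05). Of 8 genes that process or break down the SREBP system 1 rose and 2 fell at 6 h, and 3 fell at 24 h; Rnf139, a ubiquitin ligase of sterol-controlled degradation, rose by 1.08 ± 0.16 at 6 h (adjusted p = 0.000196).

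Of 11 genes of sterol export, storage and oxysterols 3 rose and 1 fell at 6 h, and 2 rose at 24 h. Ch25h, whose product 25-hydroxycholesterol blocks SREBP processing, was 3.76 ± 0.62 higher at 1 h (adjusted p = 0.00272) and 3.98 ± 0.62 at 6 h (adjusted p = 0.000299), and from 6 to 24 h it changed by -3.58 ± 0.62 (adjusted p = 0.00213). With slide as a block the 1 h value was 2.79 (adjusted p = 0.0813). Nr1h3, the oxysterol receptor LXR alpha, rose by 1.42 ± 0.14 at 6 h (adjusted p = 1.04e-05), and Soat1, which esterifies cholesterol for storage, changed by -0.77 ± 0.15 (adjusted p = 0.00152), or -0.55 with slide as a block (adjusted p = 0.218).

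Of 23 other genes of fatty acid synthesis and activation 8 fell at each time, while 2 rose at 6 h and 7 at 24 h. The acyl-CoA synthetases moved in opposite directions: Acsl1 rose by 3.18 ± 0.15 at 6 h (adjusted p = 3.04e-08) and Acsl3 changed by -1.14 ± 0.22 (adjusted p = 0.00137). The mitochondrial acetate enzyme Acss1 changed by -1.31 ± 0.16 (adjusted p = 5.92e-05). Of 14 genes of fatty acid oxidation 5 fell and 1 rose at 6 h, and 3 fell and 1 rose at 24 h, so the 6 h share of falls there was 5 of 14 against 23.6% of all genes. Acadm, a mitochondrial acyl-CoA dehydrogenase, changed by -0.84 ± 0.18 at 6 h (adjusted p = 0.00267).

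**Figure D4:**
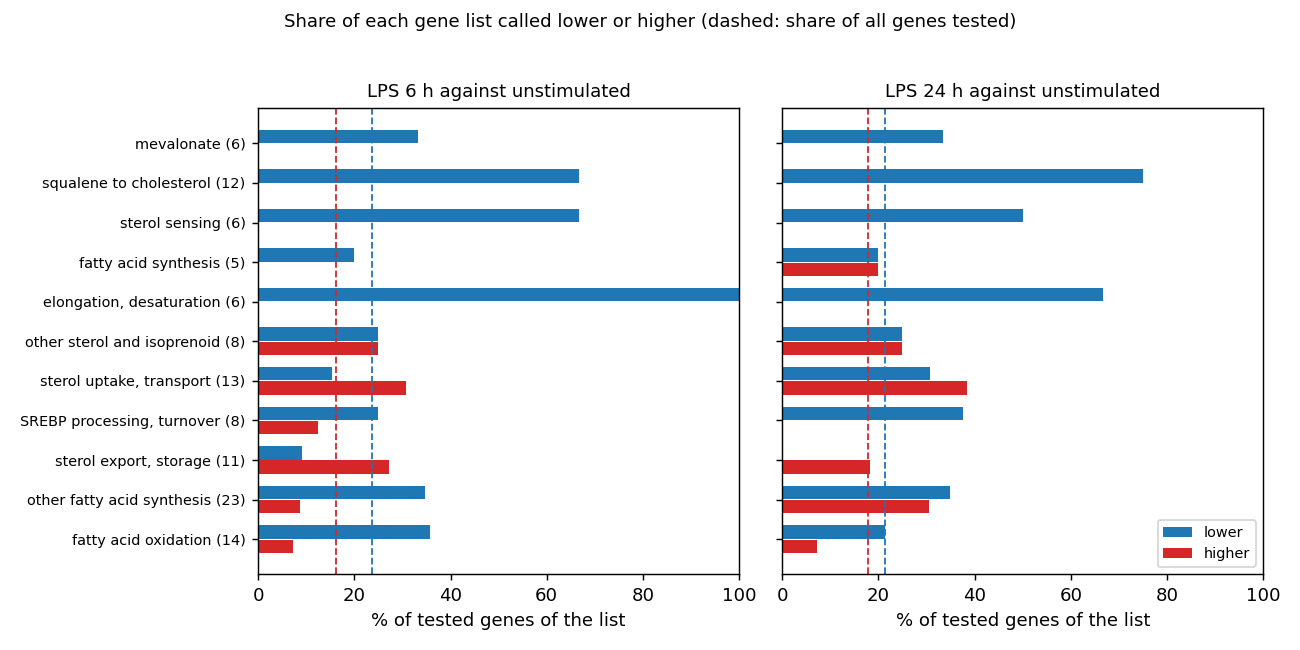
Share of each gene list (y, tested genes in brackets) called lower (blue) or higher (red) at 6 h (left) and 24 h (right); dashed lines mark the shares over all 11095 genes, 23.6% lower and 16.1% higher at 6 h, 21.4% and 17.9% at 24 h. Blue bars of squalene to cholesterol, sterol sensing, and elongation and desaturation reach well past the line, those of the supply and assembly of palmitate do not.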

How the data were processed

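RNA of 12 samples was hybridised to Agilent 2-colour arrays (Cy5 sample, Cy3 reference). The deposited scanner files hold spot intensity values, made with Agilent Feature Extraction 10.7.3.1 (protocol GE2_107_Sep09), per the file headers. The deposited log2 ratio table was made by the authors, with limma named in the submitters' processing notes, and served as an alternative. Median spot intensities were corrected with normexp (offset 50), local backgrounds that the scanner software marked as outliers being replaced by the array's median; feature outliers (92 to 161 spots per array) were left out, and ratios were loess-normalised within arrays (span 0.3) with 1639 control spots at weight 0. No spot was saturated, and 14 gene values were missing. Probes named through RefSeq accessions (22951 of 41174) were kept if well above background in Cy5 on 3 of 3 arrays of at least 1 group (21750); the probe with the highest mean brightness stood for its gene. Of 16 members with several probes, none had probes called in opposite directions. limma 3.58.1 in R 4.3.3 fitted the 4 group means on 12 arrays (8 residual degrees of freedom; two-sided, Benjamini-Hochberg over 11095 genes), tested beforehand on simulated data.

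All members could be named. All 12 values are given for the 5 largest called changes each way at 6 h, at 24 h and from 6 to 24 h, and for Hmgcs1, Sqle, Cyp51, Insig1, Srebf1, Srebf2, Stard4, Fasn, Acly, Scd1, Scd2, Elovl6 and Fads2; in the neighbouring lists the named genes come from the 3 largest called changes of a comparison, and some genes are not reported here. Members and lists were chosen with earlier results of these data known. The labels mark letters as donors without saying whether a letter is the same animal at each time; deviations from group means correlated at a median of 0.11 (-0.21 to 0.58, 18 pairs) within a letter and -0.013 (-0.53 to 0.41, 36 pairs) between letters. The number of arrays limits the precision. Alternatives covered background, normalisation, filter, probe choice, slide, donor and single arrays.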

Additional observations from a re-analysis of the deposited data

Results flagged for a closer look

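For 6 genes the change from unstimulated cells at 24 h differed from that at 6 h by limma's test of the difference, which is the 24 h to 6 h comparison and shares its arrays with both. The change at 24 h minus that at 6 h was 1.49 for Scd2 (adjusted p = 0.0482), 0.85 for Dhcr7 (0.0374), 0.75 for Elovl5 (0.0398), 0.74 for Me1 (0.0109), 0.56 for Acat2 (0.0272) and 0.53 for Elovl6 (0.0301). All 6 are positive, on the log2 scale, and with slide as a block those of Dhcr7, Me1 and Scd2 were called.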

How the results depend on the processing

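Brackets in this paragraph hold the share of all genes called lower or the number of all genes called higher. The count of members called lower at 1 h was 2 in the report (3.39%). It was 0 with normexp on all backgrounds as deposited (0.784%), the scanner software's processed signals (3.05%) or median centring (0.415%). It was also 0 with slide as a fixed block (0.496%) or without letter B (0.865%). It was 1 with the filter on all arrays (3.63%), only the groups compared (2.48%) or without slide 2 (1.55%). At 6 h it was 21 (23.6%), against 13 with the deposited backgrounds (13.1%) and 10 with median centring (5.94%). Only the groups compared gave 1 higher (1920). At 24 h it was 19 (21.4%), against 10 with median centring (13.5%) and 10 with slide as a block (8.23%). The 1 higher (1990) became 0 with deposited backgrounds (1348), median centring (832), Cy5 alone (1725) or slide as a block (848). It became 2 without slide 2 (1897) or letter B (1560). From 1 to 6 h the 13 lower (16.2%) became 6 with deposited backgrounds (6.7%), 1 with median centring (2.22%), 8 with Cy5 alone (11.2%) and 23 without slide 2 (17.7%). From 6 to 24 h the 6 higher (1071) became 0 with deposited backgrounds (471) or median centring (96), and 2 with only the groups compared (687). They became 3 with processed signals (1037), Cy5 alone (825), no filter (1017 of 16358), slide as a block (424) or without letter B (808). With deposited backgrounds the 24 h to 6 h changes of Me1 and Elovl6 turned to -0.048 and -0.33. The cause was not tested. Omitting 1 array at a time gave 0 to 5 lower at 1 h (1.07 to 4.64%) and 16 to 23 at 6 h (18 to 24.8%). It gave 16 to 20 lower at 24 h (17.7 to 22.7%) and 9 to 21 from 1 to 6 h (10.1 to 16.5%). Higher were 1 to 2 at 24 h (1508 to 2136) and 1 to 10 from 6 to 24 h (540 to 1215). The settings without slide 2 and without letter B were chosen after seeing the data.

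With donor letter as a replicate block, 4 members were lower at 1 h (4.68% of all genes), 25 at 6 h (25%), 22 at 24 h (23.1%) and 17 from 1 to 6 h (18.2%). The block gave 2 higher at 24 h (19.6%) and 8 from 6 to 24 h (11.5%). Besides the calls given with the results, the block added Hsd17b7, Srebf1, Acss2 and Fads2 from 1 to 6 h; it changed no other call. Changes on arrays are limited by signal over background: Elovl6 and Acat2 at 6 h, and Acaca at 1 h and 24 h, were above background on 2 of 3 arrays. A group held 3 arrays, and the unstimulated group shared its slide with the other groups only through 1 h A.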
